A study of Homo sapiens with 6 samples.

Results

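The 10 genes described here encode the enzymes that make serine and move its carbon units into folate, asparagine synthetase, and 3 amino acid transport proteins: PHGDH, PSAT1, PSPH, SHMT2, MTHFD2, ALDH1L2, ASNS, SLC7A11, SLC7A5 and SLC3A2. They were picked by name as a pathway and selected on the differences between shSQLE and shControl already computed from these counts, so those differences are a description. No p is given for a member, and the number of members past the threshold of the fit across all genes is stated only beside the share of all genes past it. Of the 19937 genes in the count table, 10 were members, and all 10 passed the filter on low counts that left 12450 genes for testing.

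Serine is made from a glycolytic intermediate in 3 steps, by PHGDH, PSAT1 and PSPH. SHMT2 then splits it inside the mitochondrion into glycine and a one-carbon unit carried on folate, which MTHFD2 and ALDH1L2 oxidise further. ATF4 is a transcription factor whose translation rises when the initiation factor eIF2alpha is phosphorylated, a response that 4 kinases trigger on amino acid shortage, unfolded protein, viral RNA or haem loss. All 10 genes are textbook targets of ATF4. SLC7A11 exchanges glutamate for cystine and SLC7A5 brings in leucine and other large neutral amino acids, and each works as a pair with the heavy chain SLC3A2.

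The cells were U2OS, a human osteosarcoma line, carrying a lentiviral pGIPZ hairpin against SQLE, the squalene epoxidase of cholesterol synthesis (shSQLE, 3 libraries, genotype SQLE-shRNA), or a scrambled hairpin (shControl, 3 libraries, genotype scrambled-shRNA). Both had been selected with puromycin at 2 µg/mL for 2 weeks and grown in McCoy's 5a medium with 10% serum, and poly(A) RNA was read as pairs of 151 bp. The study kept 1 of several hairpins against SQLE, so the knockdown rests on a single hairpin, and which one it was is not given in the sources used here. Whether a group's libraries are separate cultures is not stated, so SDs and p-values measure only the spread between these libraries, which may be technical. In bulk RNA, fewer cells of a kind and less RNA per cell cannot be told apart.

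Counts on genes ranged from 12212378 to 14393292 per library. SQLE, the targeted gene, had 1349, 1867 and 1924 normalized counts in shControl, in the order of the replicate numbers, and 229, 204 and 219 in shSQLE (12.7% of the shControl mean; p = 0.1 by an exact permutation test, two-sided, and no lower p is possible with 3 libraries a group). A normalized count is the count scaled to the mean effective library size (TMM). Of 12 osteosarcoma and mesenchymal markers, 6 passed the filter. COL1A1, a chain of type I collagen, fell by 0.65 on the log2 scale, from a normalized count of 164 ± 6.63 in shControl to 104 ± 4.13 in shSQLE (edgeR, adjusted p = 0.0452). SPARC, CDH11, RUNX2 and TWIST1 lay between -0.47 and -0.18 and VIM at 0.17, none past the threshold, while SP7, IBSP and THY1 had no count and the bone enzyme ALPL at most 2. Of 10 blood and endothelial markers, 5 had no count in any library and 1, PECAM1, passed the filter. PECAM1 went from 12.9 ± 2.24 normalized counts in shControl to 3.96 ± 1.93 in shSQLE, without overlap (log2 fold change -1.67, edgeR, adjusted p = 0.0933). Of 6 epithelial markers, 4 passed the filter, KRT8 and KRT18 were abundant and CDH1 had at most 2 counts. EPCAM lay at 0.40 on the log2 scale, without overlap, KRT18 at 0.16, KRT8 at 0.08 and CLDN4 at -0.23, none past the threshold. Summed CPM (counts scaled to a fixed library total) of the mesenchymal list, in which VIM outweighs all others, ran from 3253 to 3724 in shControl and from 3427 to 3844 in shSQLE. Those of the epithelial list ran from 906 to 1579 in shControl and from 1107 to 1398 in shSQLE, those of the blood and endothelial list from 1.28 to 1.53 and from 0.229 to 0.877, and their part in the results below was not tested.

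The library that stood furthest apart before any comparison was shControl replicate 1. Its counts differed from those of shControl replicates 2 and 3 by a chi-square of 53.9 and 63.8 per degree of freedom, where sampling alone gives about 1, against 2.83 between replicates 2 and 3. In shSQLE the chi-square was 3.40 between replicates 1 and 2, and replicate 3 differed from these by 9.84 and 15.9. In shControl replicate 1, the 4732 genes tested with under 45% GC in their transcript lay at a median of -0.28 on the log2 scale. This is the distance from their mean over the 6 libraries. The 3840 genes with over 55% GC lay at 0.34. In the other 5 libraries these medians lay between -0.18 and 0.20. The members span this range, from 35.4% GC in SLC7A11 to 61.2% in SLC7A5, and this touches most of the values below.

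RefSeq promoter windows of 300 bases (250 before to 50 after the start, GRCh38.p14) were at hand for 6 of the 10 members, namely PHGDH, PSAT1, MTHFD2, ASNS, SLC7A5 and SLC3A2, in 9 windows. They were searched on both strands for TGATGNAA, the core of the composite element that ATF4 binds with C/EBP factors, and for CCAAT, the box bound by NF-Y. The first was found in 1 window each of 2 members, ASNS and SLC3A2. Of all 35116 windows, 3.62% held it. The second was found in 1 window each of 4 members, PHGDH, PSAT1, MTHFD2 and SLC3A2, and in 34.6% of all windows. These shares are per window and are to be set beside the 9 windows, since some members have several. The windows of the 2 serine enzymes and of ASNS are printed because they show the 2 motifs at their places, 5′ to 3′ on the gene's strand with matches in capitals.
PHGDH, chr1:119711684-119711983, + strand: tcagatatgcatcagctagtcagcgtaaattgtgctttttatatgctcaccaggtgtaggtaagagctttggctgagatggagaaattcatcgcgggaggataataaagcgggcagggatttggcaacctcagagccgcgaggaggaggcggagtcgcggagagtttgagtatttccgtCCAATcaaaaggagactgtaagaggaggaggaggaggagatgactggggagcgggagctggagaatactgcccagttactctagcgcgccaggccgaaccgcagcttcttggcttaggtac
PSAT1, chr9:78296875-78297174, + strand: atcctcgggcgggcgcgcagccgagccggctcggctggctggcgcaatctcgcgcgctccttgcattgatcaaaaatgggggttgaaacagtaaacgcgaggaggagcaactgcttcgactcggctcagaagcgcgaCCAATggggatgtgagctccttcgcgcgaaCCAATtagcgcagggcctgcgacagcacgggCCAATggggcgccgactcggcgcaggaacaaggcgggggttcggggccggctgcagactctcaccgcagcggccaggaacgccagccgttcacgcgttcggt
ASNS, chr7:97872359-97872658, - strand: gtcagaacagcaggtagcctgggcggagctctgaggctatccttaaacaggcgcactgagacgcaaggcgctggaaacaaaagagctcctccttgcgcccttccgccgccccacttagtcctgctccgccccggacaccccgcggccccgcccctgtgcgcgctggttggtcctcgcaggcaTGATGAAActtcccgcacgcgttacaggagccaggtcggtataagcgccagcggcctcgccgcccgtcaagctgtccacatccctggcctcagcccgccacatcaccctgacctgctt
The ASNS match begins 68 bases before the start. PSAT1 holds 3 CCAAT boxes, 113, 83 and 52 bases before its start, and PHGDH 1, at 71 bases. MTHFD2 holds 2, at 184 and 74 bases, and the SLC7A5 window has neither motif. The SLC3A2 match to TGATGNAA lies on the opposite strand just after 1 of its 3 starts. A match is a string of letters and not a measured binding site, and no match says only that these letters are not in the window.

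Levels between genes were compared as CPM per kb of canonical transcript. PHGDH stood far above the rest in shControl, at 755 ± 216 (SD, n = 3), above 99.2% of the genes tested. PSAT1 followed at 159 ± 20.9, SHMT2 at 120 ± 19.9, SLC3A2 at 105 ± 20.7, MTHFD2 at 57.1 ± 6.37, SLC7A5 at 52.7 ± 5.88 and PSPH at 15.6 ± 0.254, so that 7 of the 10 were above the median of the genes tested, 8.42. SLC7A11 and ALDH1L2 stood at 4.37 ± 1.06 and 4.28 ± 1.19, and ASNS at 0.447 ± 0.0359, above only 5.12% of the genes tested. The 3 enzymes of serine synthesis thus spanned a wide range, with the last of them, PSPH, the scarcest. In shControl, 5 of the 9 neighbouring pairs in this order did not overlap in any library. PSAT1 with SHMT2, SHMT2 with SLC3A2, MTHFD2 with SLC7A5 and SLC7A11 with ALDH1L2 did not differ beyond their spread. The order in shSQLE was the same except that SLC7A5, at 84.7 ± 4.92, stood above MTHFD2, at 79.5 ± 3.57. With coding length in place of transcript length, MTHFD2 moved up to the third place.

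**Figure D1:**
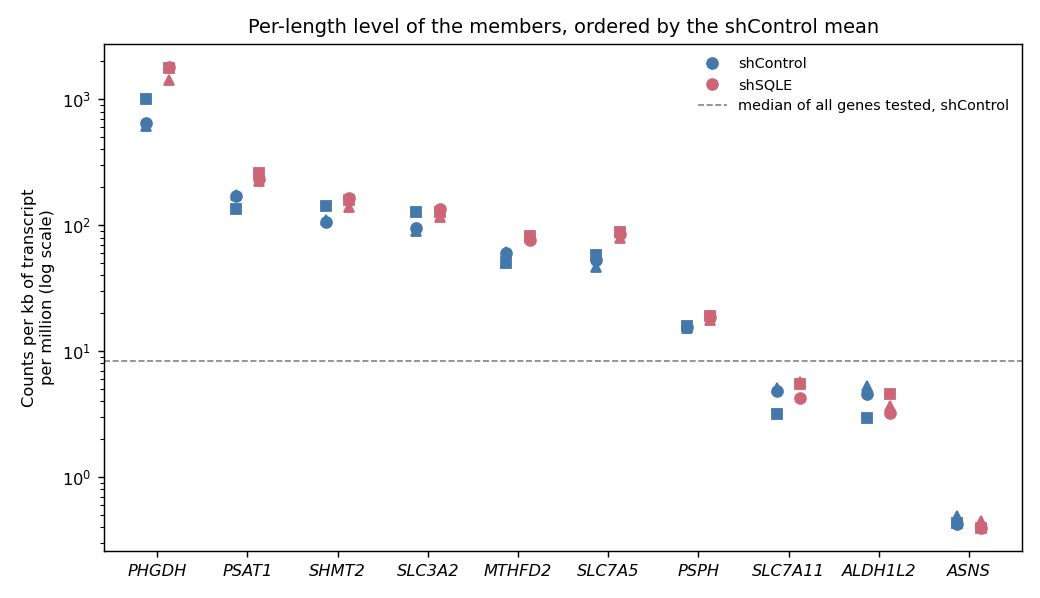
CPM per kb of transcript (log axis) of the 10 members in each library, with shControl in blue and shSQLE in red and replicates 1, 2 and 3 as squares, circles and triangles. PHGDH lies above all others in every library, and ASNS lies below all others, at 0.396 to 0.488.

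ASNS, the enzyme that makes asparagine from aspartate, needs a caution of its own. It had 12 to 16 raw counts a library, and its level is uncertain. In GENCODE v44, 99.5% of the bases of its canonical exons also belong to exons of a lncRNA gene on the same strand, ENSG00000284707, and reads that fall in 2 genes are left out by some counting settings. Of the 776 protein-coding genes in the table with at least 90% of their canonical exons shared in this way, 14.8% passed the filter, against 64.4% of the 16956 with none shared. The annotation and settings of the counting are not given in the sources used here, so that the part of this overlap in the low count was not tested. None of the other 9 members shares canonical exons on its own strand.

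In the comparison of shSQLE with shControl, 8 of the 10 members had a higher mean in shSQLE and 2, ALDH1L2 and ASNS, a lower one. Of the 12450 genes tested, 6030 had a positive log2 fold change. The median log2 fold change of the members was 0.32, beside -0.01 over all genes tested. In 5 members (PHGDH, PSAT1, PSPH, MTHFD2 and SLC7A5) every shSQLE library lay above every shControl library, beside 10.0% of the genes tested, and in none did every one lie below, beside 12.1%. With edgeR's quasi-likelihood test, past an adjusted p of 0.05 were 2 members, PHGDH and SLC7A5, both higher, beside 0.369% of the genes tested that were higher and 2.84% that were lower. The choice of the members used this comparison, and nothing is read from these counts.

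**Figure D2:**
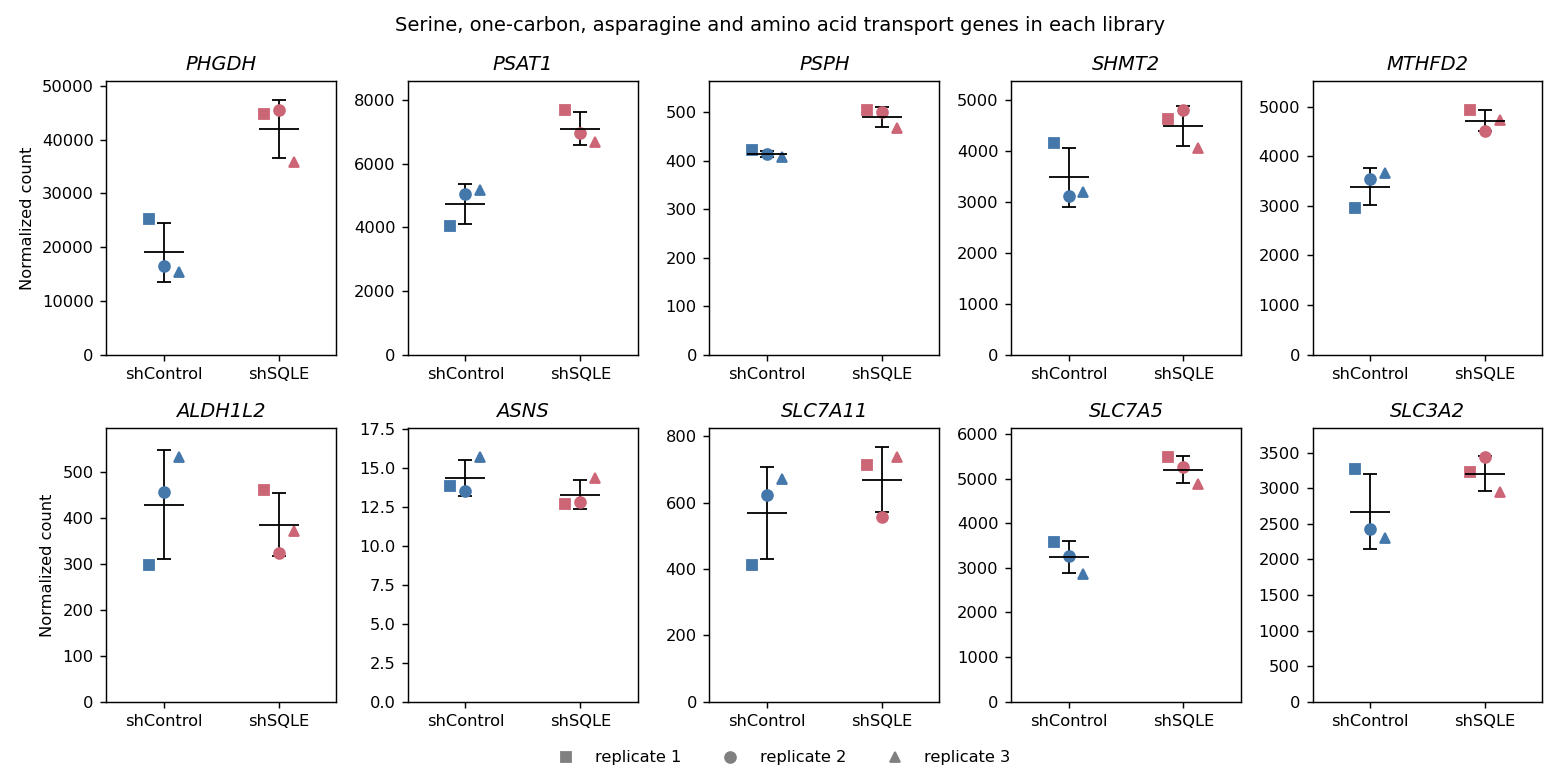
Normalized counts of the 10 members (y axes from 0, 1 scale per gene) in shControl (blue) and shSQLE (red), with squares, circles and triangles for replicates 1, 2 and 3 and black bars for the mean and SD of 3 libraries. The groups do not overlap in PHGDH, PSAT1, PSPH, MTHFD2 and SLC7A5, and shControl replicate 1 lies apart from the other controls in most panels.

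PHGDH (phosphoglycerate dehydrogenase, ENSG00000092621, chromosome 1, 119648411 to 119744218, + strand of hg38, 12 exons) makes the first committed step of serine synthesis. Its normalized counts in shControl were 25264, 16436 and 15324, again by replicate number, and those in shSQLE were 44760, 45453 and 35797. All 3 shSQLE libraries were high, and shControl replicate 1 lay above the other controls. The means were 19008 ± 5446 and 42003 ± 5386 (SD, n = 3 each), 2.21-fold, with a log2 fold change of 1.14 (standard error 0.20). By log2 fold change it ranked 17 among the 12450 genes tested. Without shControl replicate 1 the log2 fold change was 1.40, and in the other 5 fits that left out 1 library it was between 1.02 and 1.26 and not past the threshold.

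PSAT1 (ENSG00000135069, chromosome 9, 78297125 to 78330093, + strand, 9 exons) is the aminotransferase of the second step. Its normalized counts were 4027, 5038 and 5159 in shControl and 7676, 6949 and 6683 in shSQLE. Here shControl replicate 1 was the lowest library, the reverse of PHGDH, and the groups did not overlap. The means were 4741 ± 622 and 7102 ± 514 (SD, n = 3 each), with a log2 fold change of 0.58 (standard error 0.13).

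PSPH (ENSG00000146733, chromosome 7, 56011051 to 56051604, - strand, 8 exons) is the phosphatase that releases serine. It had the tightest controls of the 10, with 421, 413 and 408 normalized counts, against 504, 501 and 468 in shSQLE. The groups did not overlap, and the difference was small, at 0.24 on the log2 scale (standard error 0.11). The log2 fold changes of the 3 enzymes thus fell in the order of their steps and of their levels, with PHGDH first and PSPH last.

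SHMT2 (ENSG00000182199, chromosome 12, 57229573 to 57234935, + strand, 12 exons), the mitochondrial serine hydroxymethyltransferase, stood at 4150, 3111 and 3186 normalized counts in shControl and at 4634, 4794 and 4050 in shSQLE. Only shControl replicate 1 reached the range of shSQLE, just above its lowest library. The difference was 0.37 on the log2 scale (standard error 0.14), and 0.51 without that control. MTHFD2 (ENSG00000065911, chromosome 2, 74186172 to 74217565, + strand, 8 exons), the mitochondrial dehydrogenase and cyclohydrolase that is abundant in embryos and tumours, stood at 2956, 3550 and 3658 in shControl and at 4927, 4503 and 4724 in shSQLE. Its groups did not overlap, with a log2 fold change of 0.48 (standard error 0.11). ALDH1L2 (ENSG00000136010, chromosome 12, 105019784 to 105107643, - strand, 23 exons) oxidises formyl folate to CO2 and yields NADPH in the mitochondrion. Its values were 298, 457 and 531 in shControl and 459, 323 and 371 in shSQLE, ranges that overlapped. Its log2 fold change was -0.16 (standard error 0.23), and -0.36 without shControl replicate 1.

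ASNS (ENSG00000070669, chromosome 7, 97851677 to 97872542, - strand, 13 exons) stood at 13.9, 13.6 and 15.7 normalized counts in shControl and at 12.7, 12.8 and 14.4 in shSQLE, with overlapping groups. At this depth its log2 fold change of -0.11 had a standard error of 0.27, the largest of the 10.

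SLC7A5 (LAT1, ENSG00000103257, chromosome 16, 87830023 to 87869507, - strand, 10 exons) had the second-highest log2 fold change of the members. It stood at 3583, 3271 and 2862 normalized counts in shControl and at 5475, 5251 and 4877 in shSQLE, and every shSQLE library was well above every control. The means were 3239 ± 361 and 5201 ± 302 (SD, n = 3 each), 1.61-fold, with a log2 fold change of 0.68 (standard error 0.12). Without shControl replicate 1 it was 0.76, and in the other 5 fits that left out 1 library it was between 0.61 and 0.74 and not past the threshold.

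SLC3A2 (CD98 heavy chain, ENSG00000168003, chromosome 11, 62856004 to 62888880, + strand, 9 exons) carries SLC7A5 and SLC7A11 to the surface. It stood at 3271, 2434 and 2300 in shControl and at 3233, 3434 and 2950 in shSQLE, so that shControl replicate 1 lay within the shSQLE range and the other controls below it. Its log2 fold change was 0.27 (standard error 0.15), and 0.44 without that library. SLC7A11 (xCT, ENSG00000151012, chromosome 4, 138164097 to 138242349, - strand, 12 exons), which feeds glutathione synthesis with cystine, stood at 412, 624 and 670 in shControl and at 713, 556 and 736 in shSQLE. The other controls lay within the shSQLE range, and shControl replicate 1 was the lowest library. The log2 fold change was 0.23 (standard error 0.20), and 0.05 without that library.

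The members split by GC content in the library that stood furthest apart. In shControl replicate 1, against the mean of the other control libraries, PHGDH was higher by 0.67 on the log2 scale, SLC3A2 by 0.47, SHMT2 by 0.40 and SLC7A5 by 0.22, and these are the 4 members above 55% GC. The 5 members below 45% GC were lower, with ALDH1L2 at -0.73, SLC7A11 at -0.65, PSAT1 at -0.34, MTHFD2 at -0.29 and ASNS at -0.08. PSPH, at 48.3% GC, lay at 0.04.

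**Figure D3:**
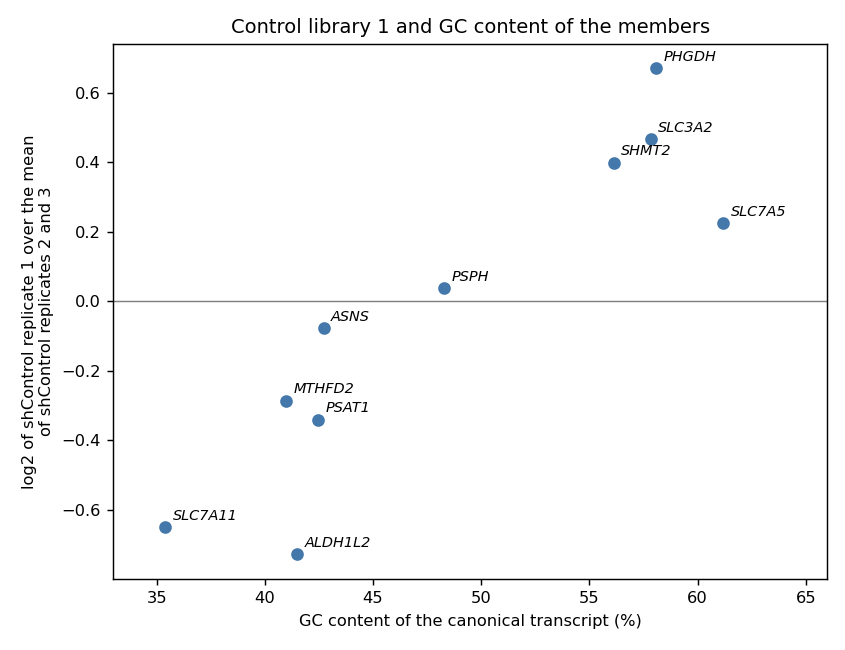
The log2 ratio of shControl replicate 1 to the mean of shControl replicates 2 and 3 (y axis) against the GC content of the canonical transcript in percent (x axis), 1 point per member. The 4 members above 55% GC lie above 0 and the 5 below 45% GC lie below it.

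Smooth trends on GC content and transcript length within each library were then taken out as offsets in the same fit. The control libraries drew together in most members, but not in PSPH (403, 422 and 419) or ASNS (15.1, 12.9 and 14.7). In MTHFD2, shControl replicate 1 went from the lowest control to the highest (3602, beside 3117 and 3132). It did so in SLC7A11 as well. PHGDH became 19932, 18105 and 17503 adjusted counts in shControl and 43888, 42244 and 38943 in shSQLE, with a log2 fold change of 1.17 (standard error 0.07). SLC7A11 became 570, 497 and 507 against 756, 664 and 686, groups that no longer overlapped, and its log2 fold change moved from 0.23 to 0.43 (standard error 0.08). SHMT2 and SLC3A2 kept their log2 fold changes, at 0.39 and 0.28 (standard errors 0.05 and 0.05), and their groups no longer overlapped either. PSAT1 stood at 0.60, MTHFD2 at 0.56, PSPH at 0.23 and SLC7A5 at 0.78. ALDH1L2 moved to 0.01 (standard error 0.13) and ASNS stayed at -0.08 (standard error 0.28), both with overlapping groups. In this fit 8 of the 10 members did not overlap between groups and were higher in shSQLE, beside 24.7% of the genes tested, and the same 8 were past an adjusted p of 0.05, beside 12.1%. The offsets moved the median of all genes to 0.06, and that of the members to 0.41. Without shControl replicate 1, 6 members were past the threshold (PHGDH, PSAT1, SHMT2, MTHFD2, SLC7A5 and SLC3A2), all higher, beside 15.6% of the genes tested in that fit. The controls left in it, replicates 2 and 3, had medians of 0.16 and 0.20 for genes under 45% GC. For genes over 55% GC they had -0.14 and -0.18. In shSQLE these medians lay between -0.10 and 0.07, and between -0.10 and 0.10. Against the fit with TMM normalization, members above 55% GC moved up in that fit and those below 45% moved down. GC content and group go partly together in it, and the part of GC content was not tested. Which of these fits is nearest to the cells was not tested.

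**Figure D4:**
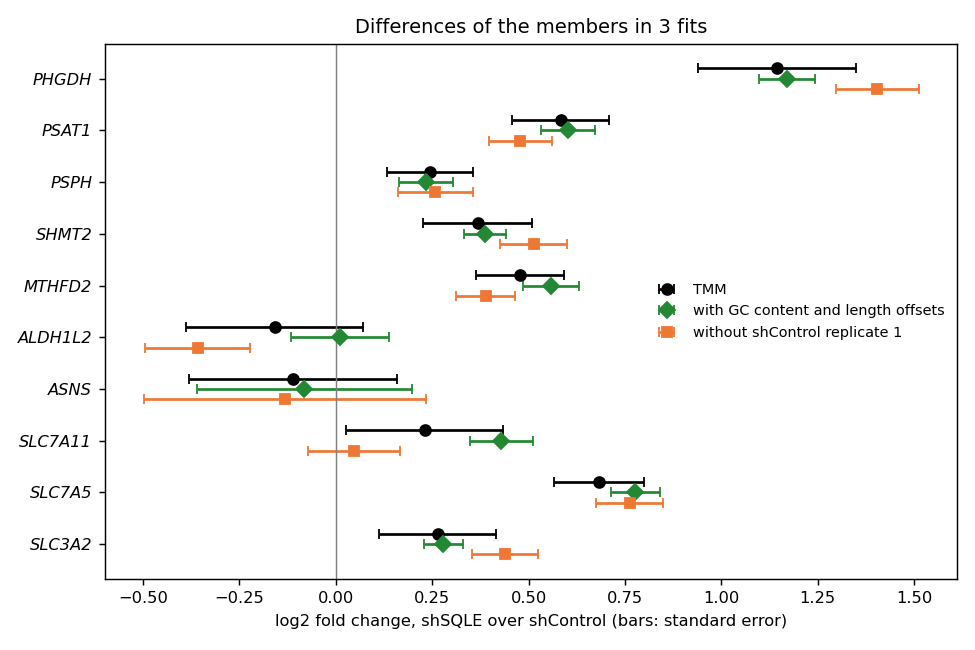
The log2 fold change of each member, shSQLE over shControl, with its standard error as a bar, in the fit with TMM normalization (black circles), with GC content and length offsets (green diamonds) and without shControl replicate 1 (orange squares). PHGDH lies above 1 in all 3 fits, ALDH1L2 and ASNS lie at or below 0.01, and SLC7A11 moves between 0.05 and 0.43.

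Across the 6 libraries, the members whose centred log2 profiles lay nearest to each other were SHMT2 and SLC3A2, which differed by a root mean square of 0.07, and PSAT1 and MTHFD2, also at 0.07. Each pair shares its class of GC content. The farthest were PHGDH and ALDH1L2, at 0.82. Among all genes tested, the 5 nearest to PHGDH were H1-2, DUSP2, PSRC1, SYN2 and TNS1, at 0.06 to 0.18, and the 3 nearest to SLC7A11 were NEK10, MAGI3 and SIPA1L2, at 0.04 to 0.05, over 6 libraries.

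The members were set beside 10 lists of other genes of these pathways, 146 genes in all, of which 133 passed the filter. Past an adjusted p of 0.05, 7 were lower in shSQLE (ATF3, DDIT3, HERPUD1, GDF15, SLC7A8, SLC1A1 and ASS1) and 3 were higher (JDP2, YARS1 and SARS1), beside the 2.84% and 0.369% of all genes given above. At an unadjusted p under 0.05, 9.89% of all genes tested were lower and 4.83% higher. With GC content and length offsets 8.67% were lower and 12.1% higher past the threshold, and without shControl replicate 1 these shares were 18.3% and 15.6%. With DESeq2, 714 genes were past the threshold, a total over both directions. The 15995 genes in that fit are all those with any count, and DESeq2 may leave some of them without an adjusted p. The lists' counts by direction with DESeq2 therefore have no share of all genes beside them. Their counts in the other fits are read beside the shares above. In the fit with TMM normalization, the genes that fell and those that rose belonged to different lists. The ATF4 partners were the exception and held both. With the offsets, and without shControl replicate 1, most of the lists held both. The lists were chosen with earlier results of these data known, and from most of them the genes named are those with the smallest p. Their counts and p-values are therefore a description too.

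ATF4 itself did not pass the test. It stood at 6686, 4667 and 4434 normalized counts in shControl and at 7111, 7455 and 6446 in shSQLE, 0.41 higher on the log2 scale (standard error 0.17, edgeR, adjusted p = 0.300), and shControl replicate 1 lay within the shSQLE range. With GC content and length offsets it was 0.40 (standard error 0.06, adjusted p = 0.00133), and without shControl replicate 1 it was 0.62 and also past the threshold. Of its 10 partners and inhibitors tested, ATF4 included, 2 fell and 1 rose, with a median of -0.21. ATF3, a stress-induced factor of the same family, fell from 214, 171 and 199 normalized counts in shControl to 71.5, 67.0 and 46.3 in shSQLE, by 1.65 on the log2 scale (standard error 0.20, adjusted p = 0.00504, edgeR), and was past the threshold in all 6 fits that left out 1 library. DDIT3 (CHOP), the factor that links lasting stress to cell death, fell from 284 ± 68.0 to 97.4 ± 20.6 (SD, n = 3 each, log2 fold change -1.54, adjusted p = 0.0124, edgeR). It lost its call without shSQLE replicate 1 (-1.53) or 3 (-1.38), and it overlaps exons of MARS1 on the opposite strand and of ENSG00000285133 on its own. JDP2, a repressor that pairs with factors of the AP-1 and ATF families, rose from 102 ± 10.6 to 198 ± 27.3 (log2 fold change 0.96, adjusted p = 0.0230, edgeR), with the call lost without shControl replicate 2 or any 1 shSQLE replicate, where it lay between 0.87 and 1.08. TRIB3, the pseudokinase that restrains ATF4, stood at 796 ± 283 and 448 ± 86.4, groups that did not overlap, with a log2 fold change of -0.83 that did not pass (adjusted p = 0.173, edgeR). CEBPD, a C/EBP factor, stood at -0.84 (adjusted p = 0.221, edgeR). With the offsets both passed, at -0.75 and -0.80 (adjusted p = 0.00218 and 0.00585, edgeR), and the list had 4 lower and 2 higher. Without shControl replicate 1 these counts were the same, but CEBPD did not pass and NFE2L2, at -0.29, did. With TMM normalization of all 6 libraries, CEBPB, CEBPG, ATF5 and NFE2L2 lay between -0.28 and 0.01.

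Of the 12 genes listed for eIF2alpha, its kinases, phosphatases and control, 0 passed the threshold in edgeR's test (1 lower at an unadjusted p under 0.05, and 1 lower with DESeq2). With the offsets 1 was lower and 1 higher, EIF2AK3 and GCN1 (adjusted p = 0.00149 and 0.0193, edgeR), and without shControl replicate 1 it was 3 lower and 1 higher. Lowest in p was EIF2AK3 (PERK), the kinase of the endoplasmic reticulum, at 344 ± 53.1 in shControl and 216 ± 10.3 in shSQLE (SD, n = 3 each), at -0.67 on the log2 scale (standard error 0.15, edgeR, adjusted p = 0.0630), with groups that did not overlap. EIF2AK4 (GCN2), which senses uncharged tRNA, was at 0.09 (standard error 0.15), EIF2AK1 (HRI) at 0.10 (standard error 0.09), and EIF2AK2 (PKR) at -0.27 (standard error 0.19). The phosphatase subunits PPP1R15A and PPP1R15B were at -0.06 and -0.26, and DELE1 and OMA1, which relay mitochondrial stress to EIF2AK1, at 0.05 and 0.10. EIF2S1 (eIF2alpha itself), EIF2B5, GCN1 and IMPACT lay between 0.07 and 0.17. Counts of mRNA do not measure phosphorylation.

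Among 17 other targets of ATF4 and of the amino acid response that were tested (of 20 listed, 19 of which matched a symbol), 2 fell and 0 rose, with a median of -0.16 (6 lower and 1 higher at an unadjusted p under 0.05, and 2 lower with DESeq2). With the offsets 7 were lower and 2 higher, and without shControl replicate 1 it was 5 and 2. HERPUD1, a degradation factor of the endoplasmic reticulum also induced by other branches of the unfolded protein response, fell from 1501 ± 118 to 649 ± 9.44 (SD, n = 3 each), by 1.21 on the log2 scale (adjusted p = 0.00162, edgeR), and was past the threshold in all 6 fits that left out 1 library. GDF15, a secreted stress cytokine, fell from 38.9 ± 9.79 to 13.3 ± 4.06 (log2 fold change -1.53, adjusted p = 0.0475, edgeR), a call that held in 1 of those 6 fits, the one without shControl replicate 1, with values between -1.34 and -1.79 over the 6. The call was also lost with RLE size factors and with a replicate block, at -1.52 in both. INHBE, at 20.8 ± 2.23 and 10.3 ± 2.49 normalized counts, and KLHL24, at a log2 fold change of -0.80, did not pass, and did with the offsets (adjusted p = 0.0391 and 0.0230, edgeR).

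The 20 cytosolic aminoacyl-tRNA synthetases, which charge tRNAs with amino acids, had a median log2 fold change of 0.24. Of these, 17 were positive, 2 rose and 0 fell (7 higher and 1 lower at an unadjusted p under 0.05, and 5 higher with DESeq2), and in 11 of 20 every shSQLE library lay above every control. Over all genes tested the shares were 0.369% for calls that were higher, 4.83% for an unadjusted p under 0.05 and higher, and 10.0% for groups that did not overlap and were higher. A positive log2 fold change was found in 6030 of the 12450. SARS1, which loads serine, rose from 4534, 3402 and 3408 normalized counts to 6541, 6526 and 5591 (log2 fold change 0.72, standard error 0.14, adjusted p = 0.0398, edgeR). YARS1, which loads tyrosine, rose from 2094 ± 313 to 3456 ± 206 (SD, n = 3 each, log2 fold change 0.72, adjusted p = 0.0261, edgeR), and it overlaps S100PBP on the opposite strand. Both calls held only without shControl replicate 1 among the fits that left out 1 library, with log2 fold changes between 0.65 and 0.87. GARS1 and MARS1 were at 0.45 and 0.43, with groups that did not overlap and adjusted p of 0.0548 and 0.0886 (edgeR). With GC content and length offsets 13 of the 20 were higher and 1 lower past the threshold, beside 12.1% and 8.67% of all genes, and without shControl replicate 1 it was 11 and 2, beside 15.6% and 18.3%.

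The other enzymes of one-carbon metabolism had no call in the fit with TMM normalization, and some in others. Of 11 tested in the mitochondrial branch, 0 passed the threshold in edgeR's test (2 higher and 1 lower at an unadjusted p under 0.05, and 1 higher with DESeq2), with a median of 0.02. MTHFD1L, which releases formate from the mitochondrion, was nearest, at 1186 ± 69.0 in shControl and 1620 ± 30.1 in shSQLE (SD, n = 3 each), which is 0.45 on the log2 scale (adjusted p = 0.0607, edgeR), with groups that did not overlap. With the offsets 2 were higher and 1 lower, MTHFD1L and SFXN3 among them (adjusted p = 0.000664 and 0.00272, edgeR), as were 2 and 1 without shControl replicate 1. SFXN2 and SFXN3, carriers of the family that takes serine into mitochondria, lay in opposite directions, at 0.35 and -0.48, both with groups that did not overlap. In this branch groups did not overlap in 2 genes that were higher and 1 that was lower, beside 10.0% and 12.1% of all genes tested. DMGDH, with few counts, lay at -0.78. Of 10 in the cytosolic branch, 0 passed (2 higher and 1 lower at an unadjusted p under 0.05, and 0 with DESeq2), with a median of 0.07. MTHFD1 stood at 0.27 and TYMS, which makes thymidylate, at 0.30, both with groups that did not overlap. In this list that held for 2 genes that were higher and 2 that were lower, beside the same 10.0% and 12.1%. MTHFS, with 19.0 ± 3.60 and 10.3 ± 2.12 normalized counts and groups that did not overlap, was at -0.86, the largest difference of this list. It shares exons with ST20-MTHFS on its own strand. With the offsets 2 of the list were higher and 0 lower, and without shControl replicate 1 it was 4 and 0. ALDH1L1, the cytosolic counterpart of ALDH1L2, was too low to test. In the methionine cycle and transsulfuration 0 of 11 passed (2 higher and 1 lower at an unadjusted p under 0.05, and 1 higher with DESeq2). AHCYL2, at -0.68 (adjusted p = 0.306, edgeR), had the largest difference of the list, while AHCYL1 stood at 0.52 and AHCY at 0.34, and CBS, which condenses serine with homocysteine, at 0.25 (standard error 0.13). With the offsets 3 were higher and 0 lower, and without shControl replicate 1 it was 2 and 2. In the 9 genes of glutathione synthesis 0 passed (0 also at an unadjusted p under 0.05 and with DESeq2), with GSS at 0.37, CHAC2 at 0.19, GGCT at 0.16 and GCLC at -0.25. With the offsets 1 was higher, GSS (adjusted p = 0.00449, edgeR), and without shControl replicate 1 it was 2 higher and 2 lower.

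Other amino acid enzymes and transporters held the remaining calls, all lower in shSQLE. ASS1, the argininosuccinate synthetase of arginine synthesis, fell from 769, 506 and 528 normalized counts in shControl to 262, 264 and 199, by 1.31 on the log2 scale (standard error 0.20, adjusted p = 0.0149, edgeR), and it was the 1 of 15 enzymes past the threshold. With the offsets 5 of the 15 were higher and 1 lower, and without shControl replicate 1 it was 4 and 2. Without any 1 shSQLE replicate its call was lost, at log2 fold changes between -1.38 and -1.17. GPT2 and ALDH18A1, enzymes of alanine and proline synthesis, stood at 0.42 and 0.24 with groups that did not overlap, and PYCR1 at 0.40 with overlap. Of 18 transporters 2 fell. With the offsets 2 were lower and 1 higher, and without shControl replicate 1 it was 9 and 2. SLC7A8 (LAT2), like SLC7A5 a light chain that pairs with SLC3A2, fell from 91.2, 78.7 and 72.6 to 26.4, 21.7 and 30.8 (log2 fold change -1.61, standard error 0.21, adjusted p = 0.00748, edgeR), and lost its call without shSQLE replicate 1 (-1.62) or 2 (-1.49). SLC1A1, a glutamate and cysteine carrier, fell from 191 ± 38.9 to 78.2 ± 9.34 (SD, n = 3 each, log2 fold change -1.29, adjusted p = 0.0147, edgeR), with its call lost without shControl replicate 2 or any 1 shSQLE replicate, between -1.35 and -1.20. SLC1A5, the glutamine carrier, stood at 3748 ± 752 and 4876 ± 587 (log2 fold change 0.38, adjusted p = 0.334, edgeR). SLC1A4, a carrier of serine and alanine, stood at -0.35 (adjusted p = 0.245, edgeR), with groups that did not overlap.

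**Figure D5:**
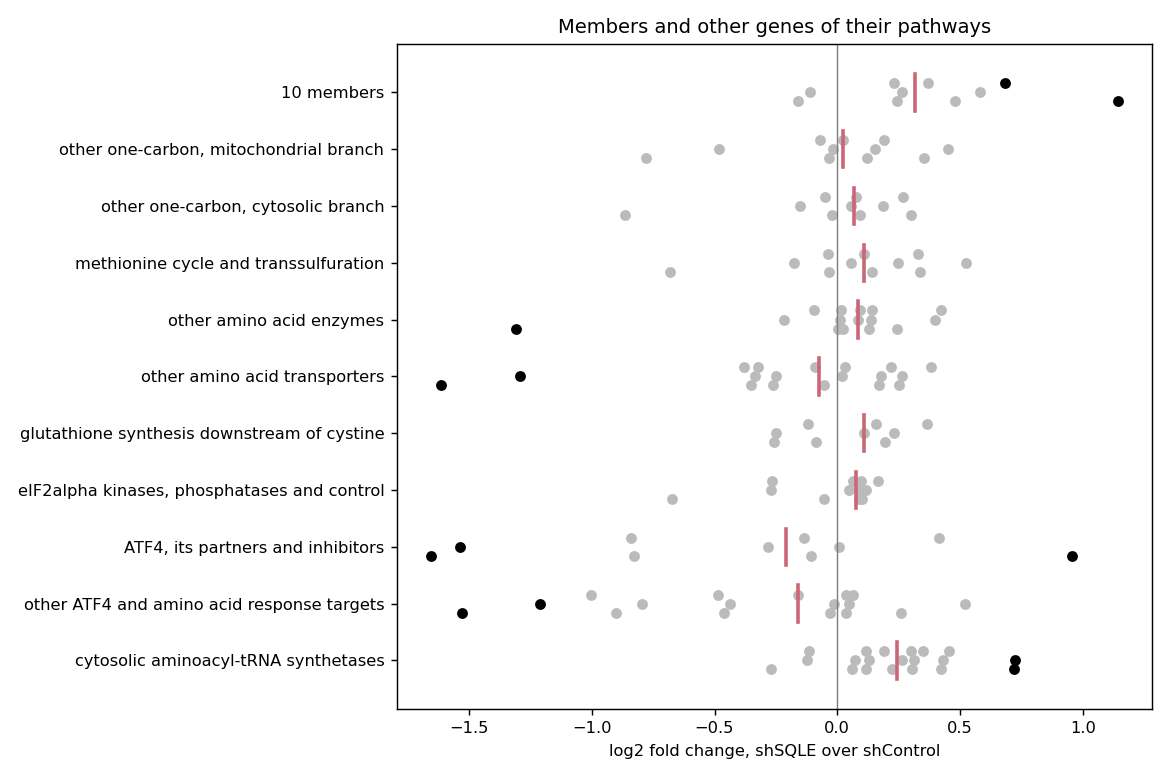
Log2 fold changes, shSQLE over shControl, of the 10 members and of the genes tested in 10 lists of their pathways, 1 point per gene, with genes past an adjusted p of 0.05 in black, others in grey, and the median of each list as a red bar. The points of the synthetases lie mostly to the right of 0, while 7 black points of other lists lie beyond -1.

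Some members share sequence or position with other genes. MTHFD2 has 7 pseudogenes named after it in GENCODE v44, PSAT1 and ASNS 4 each, SLC7A5 2 and PSPH 1, and how reads that map to several places were counted is not given. MTHFD2 overlaps exons of SLC4A5 on the opposite strand by 1324 bases, but SLC4A5 had 4 to 16 counts a library. ALDH1L2 overlaps NOPCHAP1 and WASHC4 by 145 and 131 bases, genes with 253 to 848 counts a library.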

How the data were processed

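The authors' table holds raw counts per Ensembl gene for 6 libraries, deposited without normalization. Per the labels, reads were trimmed with fastp 0.20.0, aligned to hg38 with STAR 2.7.9a and counted with featureCounts 2.0. Which gene annotation and strand setting were used, and how multi-mapping reads were handled, is not given in the sources used here. Symbols came from GENCODE v44; 32 identifiers had none.

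Counts were analysed with R 4.3.3. Genes were kept by filterByExpr, normalized by TMM and tested with edgeR 4.0.16 (glmQLFit and glmQLFTest, condition only), with Benjamini-Hochberg adjustment over 12450 genes. Standard errors were taken as |log2 fold change| over the root of F. The code was tested on simulated data. DESeq2 1.42.0, other size factors, other filters, a replicate block and leaving out each library were alternatives. So were the study's DEG rule applied to the edgeR fit, coding length, and offsets on GC content and length (mgcv 1.9.3). Same-numbered libraries deviated together for number 3 but not for every number (correlations 0.14, -0.43 and 0.54 for numbers 1, 2 and 3). Numbers were therefore not taken as pairs.

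The members and lists were chosen with earlier results of these data known. Named genes were the members, SQLE, the lists of ATF4 partners and eIF2alpha control, up to 4 genes with the smallest p in each other list, and the nearest profiles to PHGDH (5) and SLC7A11 (3). Of these, 1 gene is not reported here. The members' counts and SDs rest on 12212378 to 14393292 counts a library, and cover these libraries only.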

Additional observations from a re-analysis of the deposited data

How the results depend on the processing

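SQLE was lower and past the threshold in all alternatives. Of 12450 genes tested, 400 were past the threshold. This count was 2582 with GC content and length offsets, 2380 with these and a replicate block, and 271 with the study's DEG threshold, each of 12450. With DESeq2 it was 714 of 15995. Over the fits that left out 1 library it was 109 to 4264 (most without shControl replicate 1). Beside these totals, members past the threshold numbered 2. They numbered 4 with DESeq2, 8 with the offsets, 7 with offsets and block, and 1 with the DEG rule on the edgeR fit. Without 1 library they numbered 0 to 6, and 0 in all but the fit without shControl replicate 1. Genes of the 10 lists past it numbered 10, and 16 with DESeq2, 49 with the offsets, 50 with offsets and block, and 2 to 62 without 1 library. The replicate block alone gave 396 genes, 2 members and 11 list genes. Not every library correlated best with its own number. Neighbouring members with separate levels numbered 5, 7 by coding length, and 5 to 8 without 1 control.

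PHGDH stayed between 1.02 and 1.40 and SLC7A5 between 0.61 and 0.78 in all 14 alternatives, and no member changed sign except ALDH1L2, which was between -0.36 and 0.04. Of the other named genes, some that were not past the threshold changed sign. Leaving out 1 library, EIF2AK4 was between -0.028 and 0.18, IMPACT between -0.066 and 0.34, OMA1 between -0.024 and 0.24, ATF5 between -0.25 and 0.072 and PPP1R15A between -0.14 and 0.15, each on the other side of 0 without shControl replicate 1 (PPP1R15A also without shSQLE replicate 3, at 0.045). CEBPG was between -0.072 and 0.10, and at -0.040 with library size only, and NFE2L2 between -0.29 and 0.021, positive only without shControl replicate 2. The causes were not tested. Depth limits ASNS, with under 20 counts a library.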
